A study of Mus musculus with 4 samples.

Results

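The circadian clock genes described here are 10 of the 12393 genes measured, namely Per1, Per2, Per3, Cry1, Cry2, Dbp, Nr1d1, Nr1d2, Tef and Clock, chosen by name. They are measured by the 18 probe sets whose only gene symbol in the platform annotation is one of these names, out of 22690 probe sets on each Affymetrix array and 20380 with a single symbol. Hair follicle stem cells were taken by sorting from back skin at about postnatal day 60, in female mice on a mixed CD1/C57BL/6 background, and 4 arrays were made from their RNA. A pair of arrays came from Tbx1 conditional knockout (cKO) mice and a pair from wild type (WT) mice, and each pair was numbered set 2 and set 1. All samples share the sort on YFP, integrin α6 and CD34, and one treatment text, wax depilation of the back 48 h before the skin was taken. A second label calls both arrays of set 2 activated and both arrays of set 1 quiescent, which that treatment text does not explain, so the sets are named by number. The Cre driver of the knockout, the cells that carry YFP, the number of animals per sample and the hour of harvest are not given in the labels. The labels do not say whether arrays of one genotype are from different animals, and the p-values below therefore measure only how far these samples spread, possibly for technical reasons.

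The circadian clock is a feedback loop of transcription that runs in nearly every mammalian cell. CLOCK and its partner BMAL1, encoded by Arntl, bind E-box sequences and raise the transcription of the Per, Cry, Nr1d and PAR bZIP genes. PER and CRY proteins then repress CLOCK and BMAL1, the nuclear receptors REV-ERBα and REV-ERBβ (Nr1d1 and Nr1d2) repress Arntl, and the PAR bZIP factors DBP and TEF act on D-box sequences. Levels of most of these transcripts rise and fall over the day, also in mouse skin, where the clock has been linked to the hair cycle and to the activation of bulge stem cells. Without the hour of harvest, the level of a clock transcript on an array cannot be placed in its daily course.

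The windows before the transcription starts are shown because the clock acts through short sequences there. Starts were matched by symbol in RefSeq for mouse assembly GRCm38.p6, where 9 of the 10 genes were found, all but Per2, with 13 starts. The 250 bases before each start were searched on both strands. The motifs were the E-box CACGTG, the E'-box CACGTT, the D-box TTATGNAA, the ROR element, the cyclic AMP response element TGACGTCA and the glucocorticoid response element. No pair of matches overlapped. Below, capitals mark every match, and each sequence runs 5′ to 3′ on the strand of its gene.
Per1, chr11:69098699-69098948, plus strand: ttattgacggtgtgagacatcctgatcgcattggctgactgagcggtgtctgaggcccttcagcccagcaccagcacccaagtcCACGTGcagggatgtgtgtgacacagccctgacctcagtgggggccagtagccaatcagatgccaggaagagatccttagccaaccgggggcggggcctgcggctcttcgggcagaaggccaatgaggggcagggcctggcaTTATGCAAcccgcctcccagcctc
Tef, first start, chr15:81802423-81802672, plus strand: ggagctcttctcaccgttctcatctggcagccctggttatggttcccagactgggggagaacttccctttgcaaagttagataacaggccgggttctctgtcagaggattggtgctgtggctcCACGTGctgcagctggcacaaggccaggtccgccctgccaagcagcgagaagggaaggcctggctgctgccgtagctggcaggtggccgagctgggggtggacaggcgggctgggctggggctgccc
Tef, second start, chr15:81811164-81811413, plus strand: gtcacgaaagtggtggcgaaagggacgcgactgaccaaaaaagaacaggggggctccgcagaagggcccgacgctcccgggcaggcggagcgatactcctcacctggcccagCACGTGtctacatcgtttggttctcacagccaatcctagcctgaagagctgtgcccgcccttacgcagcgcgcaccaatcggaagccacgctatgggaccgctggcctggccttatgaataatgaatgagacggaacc
Nr1d1, chr11:98775378-98775627, minus strand: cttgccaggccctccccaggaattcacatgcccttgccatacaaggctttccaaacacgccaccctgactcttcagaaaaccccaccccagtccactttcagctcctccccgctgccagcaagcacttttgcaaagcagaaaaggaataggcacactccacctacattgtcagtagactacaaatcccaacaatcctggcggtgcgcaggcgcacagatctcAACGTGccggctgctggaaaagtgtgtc
Dbp, chr7:45704997-45705246, plus strand: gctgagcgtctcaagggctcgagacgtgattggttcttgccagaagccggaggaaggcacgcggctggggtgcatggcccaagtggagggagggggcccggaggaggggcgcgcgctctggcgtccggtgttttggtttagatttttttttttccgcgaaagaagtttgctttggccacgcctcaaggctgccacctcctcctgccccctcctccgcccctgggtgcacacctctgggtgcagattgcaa
Cry1, chr10:85185055-85185304, minus strand: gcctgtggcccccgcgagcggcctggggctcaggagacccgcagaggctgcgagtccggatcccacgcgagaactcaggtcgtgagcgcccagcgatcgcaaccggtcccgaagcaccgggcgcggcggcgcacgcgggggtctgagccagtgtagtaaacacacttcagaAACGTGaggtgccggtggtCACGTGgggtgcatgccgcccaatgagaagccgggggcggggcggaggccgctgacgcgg
The windows of Per1, Tef, Nr1d1 and Dbp are those of the genes that read higher on both cKO arrays, and Cry1 stands beside them as the gene that read lower on both. Per1 held an E-box 166 to 161 bases before its first start and a D-box 24 to 17 bases before it, and its second start, not shown, held no match. Tef held an E-box before each start, at 127 to 122 and at 138 to 133 bases. Cry1 held an E-box 60 to 55 bases before its start and an E'-box at 79 to 74, and Nr1d1 an E'-box at 28 to 23. None of the 6 motifs was found in this window of Dbp. Of the windows not shown, Cry2 held an E'-box and Per3 held D-boxes at 205 to 198 and 158 to 151 bases, while Nr1d2 and the starts of Clock held none. E-boxes were found in 6.02% of the 32851 windows of all genes, E'-boxes in 3.85% and D-boxes in 3.07%. Counted by gene, 3 of the 9 held an E-box, beside 6.86% of 27025 genes. An E'-box was held by 3, beside 4.50%, and a D-box by 2, beside 3.63%. The other motifs, found in 0.177%, 1.55% and 0.387% of windows in the order given, matched none of the 9 genes. These matches describe letters and not bound sites.

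Values are log2 intensities, and levels are compared only between arrays for one probe set, since probe sets differ in how strongly they bind. A probe set was called dim when its mean lay under percentile 40 of all probe sets, a log2 intensity of 5.40. At least 1 probe set passed this limit for 8 of the 10 genes, which entered the limma tests over 8031 genes, each through its brightest probe set. Both probe sets of Per2 and all 3 of Per3 lay under the limit on every array. Their levels ran from 2.92 to 4.56 for Per2 and from 3.66 to 5.08 for Per3, so these PERIOD repressors were not measured with any certainty. One further probe set of Nr1d2 and a further pair of Tef were also dim on every array.

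**Figure D1:**
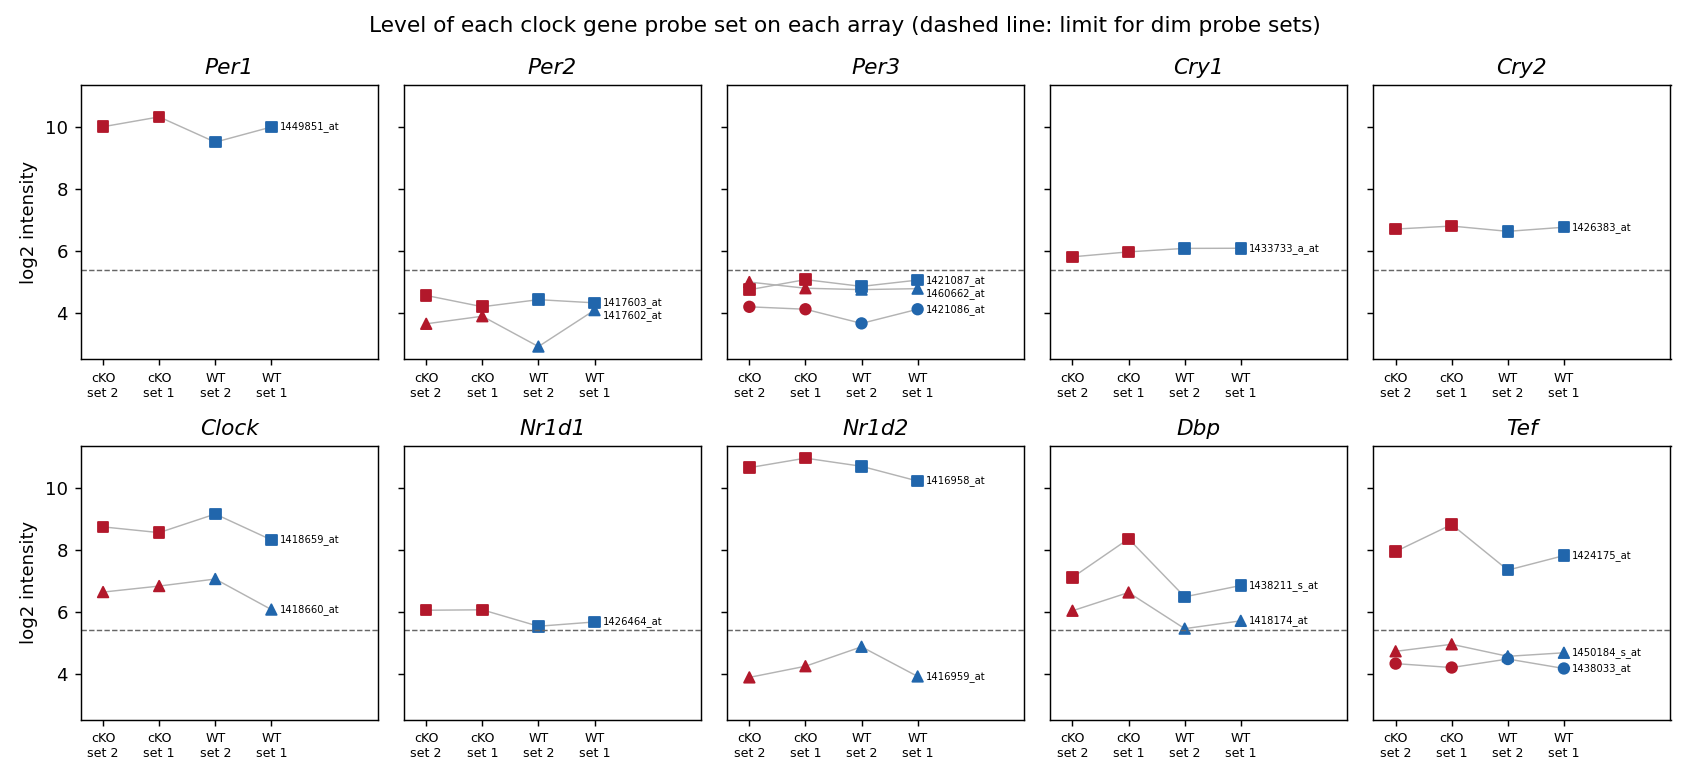
Log2 intensity (vertical axis) of all 18 clock gene probe sets on the cKO arrays (red) and WT arrays (blue) of each set, 1 panel per gene, with thin lines joining the values of a probe set and a dashed line at the dim limit of 5.40. Dbp and Tef show the widest spread among the bright probe sets, with the cKO array of set 1 highest at 8.35 and 8.81.

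Facts of the whole series touch these values in several ways. Tbx1 read 8.88 and 9.54 on the cKO arrays and 10.37 and 10.53 on the WT arrays, a difference of -1.24 (SE 0.25) with a limma adjusted p of 0.172, or 0.0424 with sets as a replicate block. All 10 bulge markers were above the dim limit, Cd34 at 9.13 and 9.46 in cKO and 8.96 and 8.85 in WT. Lhx2 went the other way, at 10.99 and 10.92 in cKO and 11.37 and 11.44 in WT. Both cKO arrays lay above both WT arrays for 3 of the 10, beside 26.7% of all genes tested, and below for 1, beside 19.9%. Of 8 endothelial markers, all were dim on both cKO arrays and 4 on both WT arrays, and their summed linear intensity was 124.3 and 117.4 in cKO against 700.1 and 806.2 in WT. The 14 mitosis genes measured all read lower in cKO in either set, and their median difference was -0.67. The cKO array of set 1 had weak 5′ signal, with a 3′ minus 5′ difference of 2.95 for the added Dap control against 1.74 to 1.82 on the other arrays. The WT array of set 2 stood apart in the nuclear RNA Malat1, at 12.35 against 9.80 to 10.56 elsewhere. The summed intensity of 4 suprabasal keratinocyte markers was 16410 and 15680 in cKO against 4438 and 13690 in WT, low on that same WT array. Lor, one of them, differed between set 2 and set 1 by -1.98 within cKO and -3.37 within WT. Krt1, Krt10 and Ivl were not lower in set 2 within cKO, at 0.28, 0.01 and 0.11. Within WT they differed by -1.71, -1.53 and -0.19. Of the fat cell markers, Fabp4 read 4.07 and 3.38 in cKO against 10.43 and 10.13 in WT. Adipoq and Retn, the other 2 measured, were dim on every array and did not follow it. Adipoq read 3.03 and 3.36 in cKO against 2.99 and 3.10 in WT, and Retn 4.72 and 4.71 against 4.62 and 4.64. The part of endothelial and suprabasal RNA, Fabp4, mitosis genes, RNA ends and nuclear RNA in the clock gene values was not tested. In sorted cells measured in bulk, fewer cells with a transcript and less of it per cell cannot be told apart.

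The comparison of cKO with WT asked how the clock genes stood in sorted stem cells of Tbx1 cKO mice. Dbp, Tef, Nr1d1 and Per1 had both cKO values above both WT values, Cry1 had both below, and Cry2, Nr1d2 and Clock overlapped between the genotypes. No clock gene passed limma's test at an adjusted p under 0.05, against 7 of all 8031 genes (0.0872%). At an unadjusted p under 0.05, limma gave Dbp and Nr1d1, 2 of the 8, where 14.2% of all genes did so. With sets as a replicate block, Tef and Per1 joined them, 4 of the 8, where 18.0% of all genes did so. Values on both cKO arrays above both WT arrays were found for 4 of the 8 clock genes, beside 26.7% of all genes tested, and the reverse for 1 of 8, beside 19.9%. The median difference was 0.38 over the 8 clock genes and 0.03 over all genes tested. The clock gene median was 0.20 when dim genes were kept, 0.19 with the mean of each gene's probe sets and 0.22 without the cKO array of set 1. An exact permutation test of 2 arrays against 2 can give no p below 0.333, and none was used for single genes.

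The PAR bZIP factors had the largest differences. Dbp encodes the D-box binding protein, a direct E-box target whose transcript is among the most strongly cycling of the clock. Its brighter probe set read 7.10 and 8.35 on the cKO arrays of sets 2 and 1, against 6.48 and 6.84 on the WT arrays. The cKO array of set 1 was the highest by a wide gap, and the other cKO array lay closer to the WT arrays. Means were 7.73 ± 0.88 in cKO and 6.66 ± 0.26 in WT (SD, n = 2), a difference of 1.07 (SE 0.41) or 2.09-fold, with a limma adjusted p of 0.332. The difference was 0.62 within set 2 and 1.51 within set 1. The second probe set of Dbp showed the same order of arrays, with 6.03 and 6.62 in cKO against 5.45 and 5.70 in WT, and differences of 0.58 and 0.91. The name of the brighter probe set carries the suffix _s_at, given to probes shared by several transcripts, and the other carries no such mark. Without the cKO array of set 1, the Dbp difference was 0.44, and without the cKO array of set 2 it was 1.69.

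Tef encodes thyrotroph embryonic factor, the PAR bZIP partner that binds the same D-box. Its bright probe set read 7.94 and 8.81 on the cKO arrays of sets 2 and 1 and 7.34 and 7.81 on the WT arrays. The groups did not overlap, but the cKO array of set 2 and the WT array of set 1 nearly met. Means were 8.38 ± 0.62 in cKO and 7.57 ± 0.33 in WT (SD, n = 2), and the difference was 0.80 (SE 0.33), or 1.74-fold, with a limma adjusted p of 0.352. Within set 2 the difference was 0.60 and within set 1 it was 1.00. Without the cKO array of set 1, the Tef difference was 0.37, and without the cKO array of set 2 it was 1.24. The dim probe sets of Tef differed by far less, by 0.22 and -0.06, at levels of 4.17 to 4.95. Dbp and Tef were the only clock genes at least 1.5-fold higher in cKO within both sets, 2 of the 8 tested, beside 3.04% of all genes tested. Both lay close to this limit in set 2, at 1.54-fold for Dbp and 1.52-fold for Tef. The second probe set of Dbp, also above the dim limit, fell short there at 1.49-fold. No clock gene was at least 1.5-fold lower in cKO within both sets, beside 1.64% of all genes. By size of the genotype difference, Dbp lay at percentile 98.1 and Tef at 95.2 of all genes tested. When sets entered limma as a replicate block, the adjusted p was 0.0962 for Dbp and 0.102 for Tef, and no clock gene passed, while the count over all genes was 83 (1.03%).

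Among the nuclear receptors, Nr1d1 and Nr1d2 did not run alike. Nr1d1, which encodes REV-ERBα, read 6.05 and 6.06 on the cKO arrays of sets 2 and 1, against 5.53 and 5.67 on the WT arrays. Arrays of one genotype lay closer to each other than to the other genotype, and the difference was similar in both sets, at 0.52 and 0.39. The mean difference was 0.45 (SE 0.16), or 1.37-fold, with a limma adjusted p of 0.318, at levels close to the dim limit. Nr1d2, which encodes REV-ERBβ, read 10.65 and 10.95 on the cKO arrays and 10.69 and 10.21 on the WT arrays. The WT array of set 1 was low and the other 3 lay together, so the difference was -0.04 within set 2 and 0.74 within set 1. The fit gave 0.35 (SE 0.22, limma adjusted p = 0.536), and the difference was 0.11 without the WT array of set 1, 0.19 without the cKO array of set 1 and 0.58 without the WT array of set 2. With the mean of both its probe sets, Nr1d2 differed by 0.0091. The dim second probe set of Nr1d2 had its highest value, 4.87, on the WT array of set 2, the array with the highest Malat1, against 3.88 to 4.24 on the others.

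Of the repressors, Per1 differed more than the cryptochromes. Per1, which is induced by CLOCK and BMAL1 and also by glucocorticoids and cyclic AMP, read 10.01 and 10.32 on the cKO arrays of sets 2 and 1, against 9.51 and 9.997 on the WT arrays. The cKO array of set 2 and the WT array of set 1 were nearly equal, so the groups barely separated. The difference was 0.41 (SE 0.23), or 1.33-fold, with a limma adjusted p of 0.474, and it was 0.50 within set 2 and 0.33 within set 1. The Per1 difference was 0.17 without the WT array of set 2, 0.25 without the cKO array of set 1 and 0.66 without the WT array of set 1. Cry1, a repressor whose transcript peaks late in the cycle, had levels of 5.81 and 5.97 in cKO against 6.08 and 6.09 in WT. That difference of -0.19 (SE 0.16, limma adjusted p = 0.627) was the only one of the 8 that was negative within both sets. Cry2, the second cryptochrome, had levels of 6.71 and 6.80 in cKO against 6.63 and 6.76 in WT, and its range over all 4 arrays was 0.17, at percentile 6.92 of the ranges of all genes tested. The Cry2 difference was 0.06 (SE 0.16, limma adjusted p = 0.905).

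Clock, which encodes the activator, did not separate the genotypes. Its brighter probe set read 8.73 and 8.55 on the cKO arrays of sets 2 and 1 and 9.15 and 8.32 on the WT arrays. Both cKO values lay between the WT values, and the difference changed sign, at -0.41 within set 2 and 0.23 within set 1. Its second probe set also changed sign, with differences of -0.42 and 0.76. The fit gave -0.09 (SE 0.29, limma adjusted p = 0.918), and without the WT array of set 2 the Clock difference was 0.33. Whether the genotype difference of any clock gene differed between the sets could not be tested, since each genotype has 1 array per set.

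**Figure D2:**
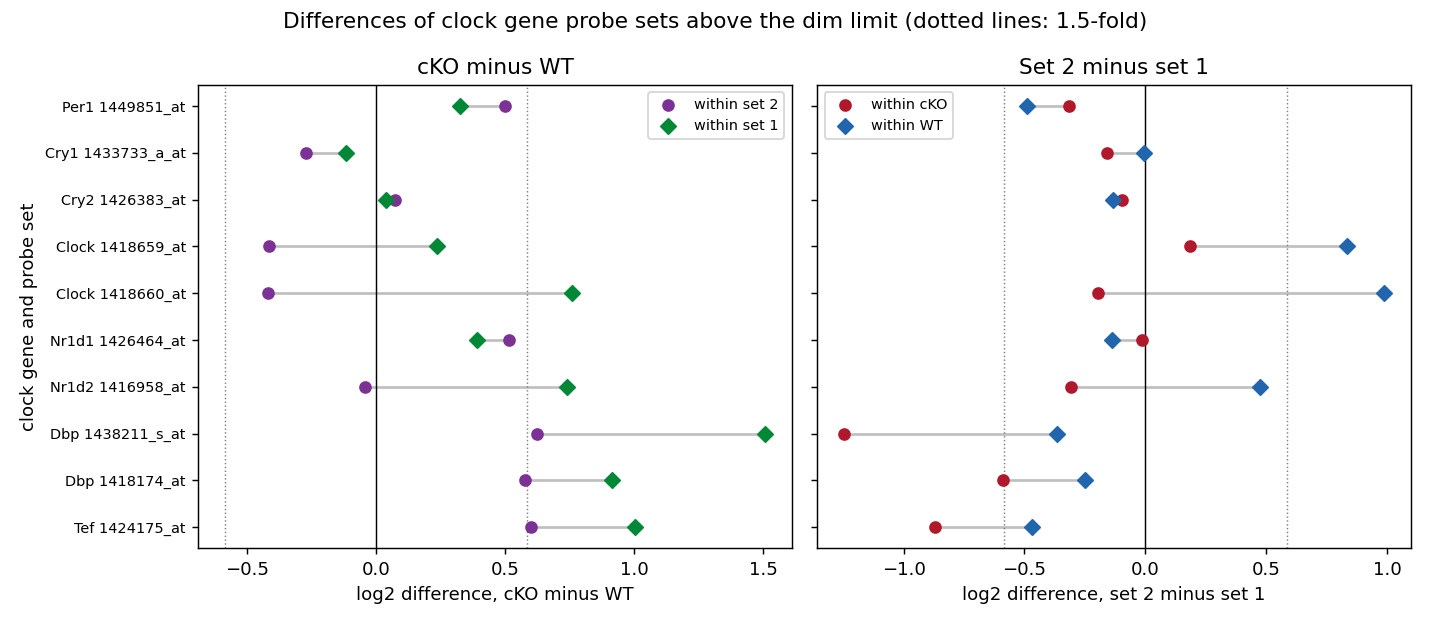
Log2 differences (horizontal axes) of the 10 clock gene probe sets above the dim limit: cKO minus WT within set 2 (circles) and set 1 (diamonds) at left, and set 2 minus set 1 within cKO (circles) and WT (diamonds) at right, with dotted lines at 1.5-fold. The bright probe sets of Dbp and Tef lie right of 0 in both sets and left of 0 in both genotypes, and Clock has its set 2 and set 1 values on opposite sides of 0 at left.

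**Figure D3:**
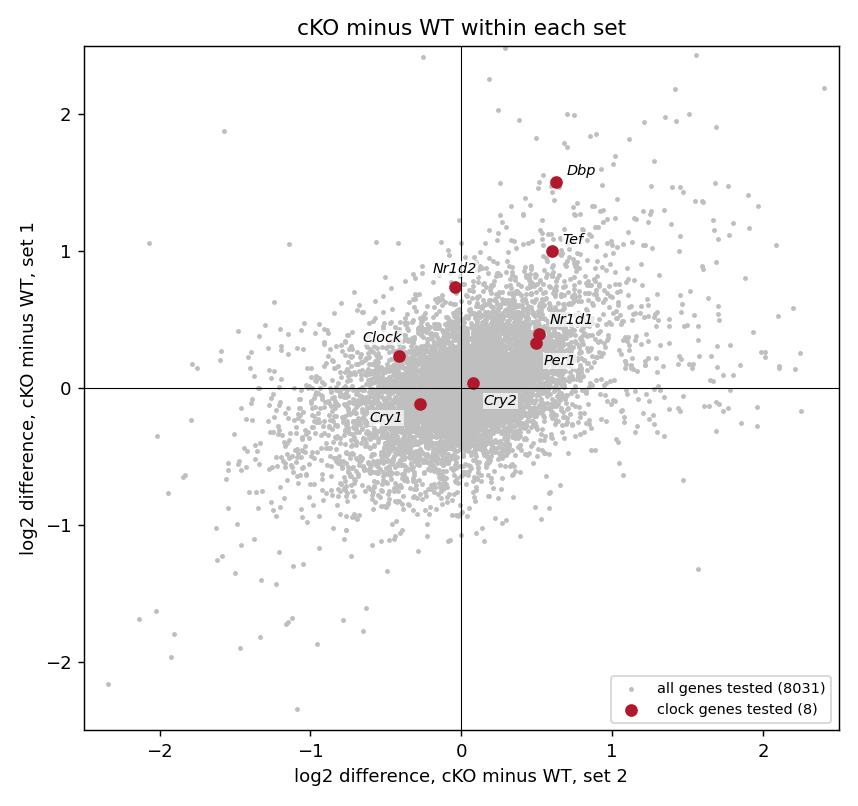
Log2 difference, cKO minus WT, within set 2 (horizontal axis) and set 1 (vertical axis) for all 8031 genes tested (grey) and the 8 clock genes tested (red), with 33 genes beyond the axes. Dbp at 0.62 and 1.51 and Tef at 0.60 and 1.00 lie toward the upper edge of the cloud, and the other clock genes lie within it.

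The comparison of set 2 with set 1 asked whether the clock genes followed the labels activated and quiescent. Tef, Dbp and Per1 read lower in set 2 within both genotypes, Clock read higher in set 2 within both, and the remaining differences were small or of opposite sign. limma called none of the 8031 genes (0.0%), 230 genes had an unadjusted p under 0.05 (2.86%), none of them a clock gene, and with genotype as a block the count was 1 (0.0125%). With that block, Tef, Dbp and Clock had an unadjusted p under 0.05, 3 of the 8, where 8.59% of all genes did so, and none passed after adjustment. Values were lower in set 2 within both genotypes for 6 of the 8 clock genes, beside 35.8% of all genes tested, and higher for 1 of 8, beside 19.8%. Of these 6, Cry1 was lower by almost nothing within WT (-0.004) and Nr1d1 within cKO (-0.014). No clock gene was at least 1.5-fold apart in the same direction within both genotypes, beside 0.573% of all genes higher and 0.809% lower in set 2.

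Dbp differed by -1.24 within cKO and -0.36 within WT, and Tef by -0.87 and -0.47, for fitted differences of -0.80 (SE 0.53) and -0.67 (SE 0.40). Per1 differed by -0.32 within cKO and -0.49 within WT, with a fitted difference of -0.40 (SE 0.25). That Per1 value was -0.15 without the WT array of set 2, -0.24 without the cKO array of set 1 and -0.65 without the cKO array of set 2. Clock differed in the other direction, by 0.18 within cKO and 0.83 within WT, with a fitted difference of 0.51 (SE 0.22), although its second probe set read -0.19 and 0.99. Clock and Cry2 were the genes whose sets did not overlap, 1 of 8 above beside 11.1% of all genes and 1 of 8 below beside 19.5%, and for Cry2 the fitted difference was -0.11 (SE 0.17). Nr1d2 differed by -0.31 within cKO and 0.47 within WT. Nr1d1 differed by -0.01 and -0.14 and Cry1 by -0.16 and -0.00, all within the spread of the arrays. limma's adjusted p was 0.999 for each of these genes. Without the cKO array of set 1, whose control transcripts had weak 5′ signal, Dbp differed by -0.05 and Tef by -0.17 between the sets, and without the WT array of set 1 these were -1.56 and -1.17. Dbp was also -0.49 without the WT array of set 2, and Tef -0.37. Without the WT array of set 2, which had the highest Malat1, Clock differed by 0.30.

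Dbp, Tef, Nr1d1 and Per1 ranked the arrays alike, with the cKO array of set 1 highest, then the cKO array of set 2, the WT array of set 1 and the WT array of set 2. This order was noticed after the values were seen. It was held by 4 of the 8 clock genes tested, the genes it was read from, and by 11.2% of all genes. Near ties decided it for Nr1d1 and Per1. Nr1d1 read 6.06 and 6.05 on the cKO arrays of sets 1 and 2. Per1 read 10.006 on the cKO array of set 2 and 9.997 on the WT array of set 1. Centred on its own mean, the average profile of the 7 tested clock genes other than Clock read -0.00 and 0.43 on the cKO arrays of sets 2 and 1 and -0.29 and -0.13 on the WT arrays. Per1 lay nearest to this profile, at a root mean square distance of 0.12 over the 4 arrays, and Dbp at 0.44 lay farthest among the 7. Each of the 7 is itself part of the profile, and Clock, left out of it, lay at 0.49. Outside the clock genes, the nearest genes were Trim32 at a distance of 0.01, Aebp1 and D230025D16Rik at 0.02, and Mocos and Blcap at 0.03. The likeness rests on 4 arrays and is a description of them.

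Other components of the clock were taken from a list of 25 genes, of which 18 were measured and 15 lay above the dim limit. None passed limma's test in either comparison, 3 of the 15 had an unadjusted p under 0.05 between genotypes, beside 14.2% of all genes, and 0 between sets, beside 2.86%, and their median difference between genotypes was 0.07. Values were higher in cKO within both sets for 8 of the 15, beside 35.8% of all genes, and lower for 2, beside 27.9%. The array order of Dbp was held by 4 of the 15, namely Bhlhe40, Csnk1d, Hlf and Usp2, beside 11.2% of all genes. Near ties decided it for Bhlhe40, at 11.244 and 11.245 on the cKO arrays of sets 2 and 1 and 11.226 on the WT array of set 1. The further probe sets of Csnk1d, all above the dim limit, overlapped between the genotypes. Usp2, a clock-controlled ubiquitin protease, read 7.96 and 8.41 on the cKO arrays of sets 2 and 1 against 7.31 and 7.84 on the WT arrays. Its difference was 0.61 (SE 0.25, limma adjusted p = 0.363), and its second probe set read 8.10 and 8.40 in cKO against 7.17 and 7.55 in WT. Hlf, the remaining PAR bZIP gene, differed by 0.45 (SE 0.15, limma adjusted p = 0.308), with near-equal differences of 0.45 and 0.46 in sets 2 and 1, at levels that lay under the dim limit on both WT arrays, and its dimmer probe set differed by 0.52 and -0.60.

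Arntl encodes BMAL1, the partner of CLOCK, and is repressed by the REV-ERB proteins and raised by ROR proteins. It read 8.29 and 8.06 on the cKO arrays of sets 2 and 1 and 7.50 and 7.71 on the WT arrays. Both cKO arrays were higher, with a difference of 0.57 (SE 0.18, limma adjusted p = 0.281), 0.79 within set 2 and 0.35 within set 1. Rora, which encodes an activator of Arntl, differed by 0.67 (SE 0.22, limma adjusted p = 0.306), 0.87 within set 2 and 0.47 within set 1. A second Rora probe set above the dim limit differed by 0.74 and 0.11, and its genotypes overlapped. Arntl and Rora thus had the larger difference in set 2, whereas Dbp and Tef had it in set 1, a contrast that was not tested. Timeless, a homologue of a fly clock gene with a role in DNA replication in mammals, differed by -0.42 and Nono, an RNA-binding partner of PER proteins, by -0.29, both negative within both sets. Npas2, which can stand in for Clock, was dim on every array.

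**Figure D4:**
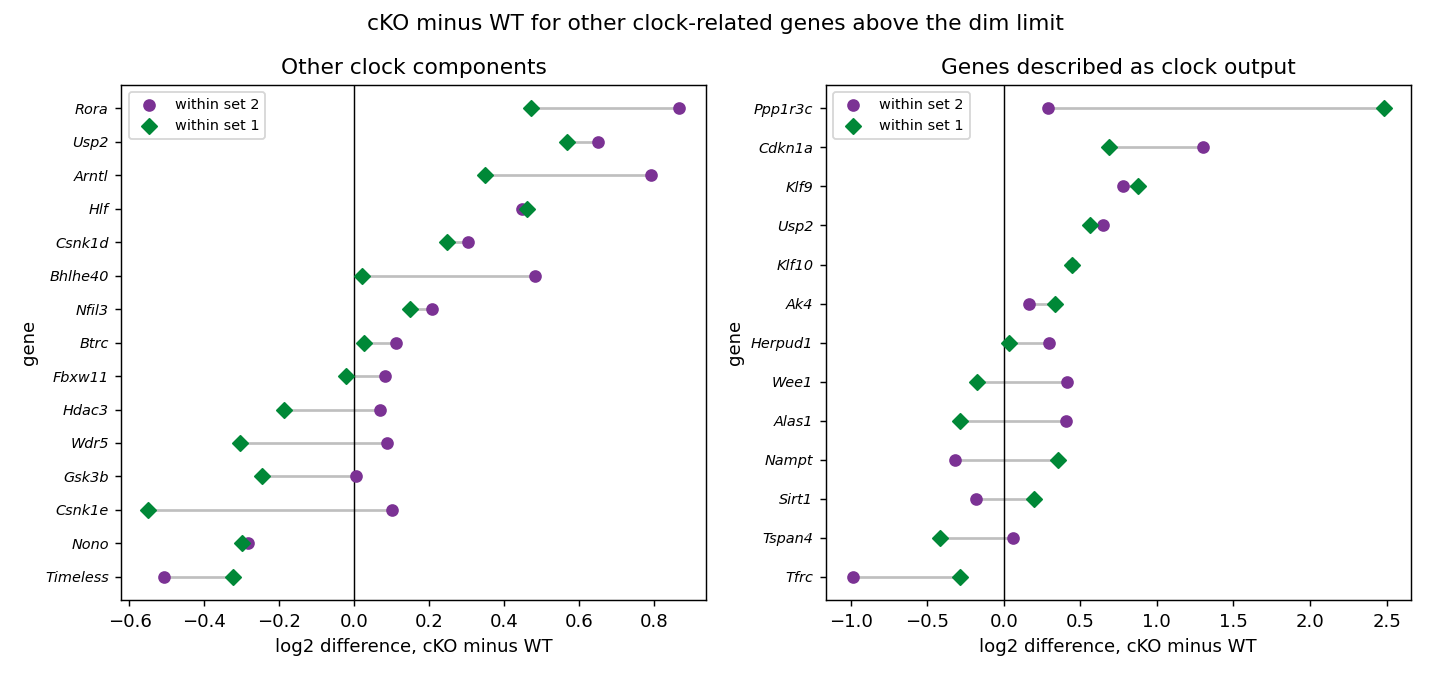
Log2 difference, cKO minus WT (horizontal axes), within set 2 (circles) and set 1 (diamonds) for the 15 other clock components and the 13 clock output genes above the dim limit, ordered by mean difference. Rora, Usp2, Arntl and Hlf head the first list and Ppp1r3c, Cdkn1a and Klf9 the second.

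Between the sets, the largest values of this list were -0.49 for Usp2, -0.48 for Timeless and 0.35 for Rora, followed by -0.23 for Bhlhe40, 0.22 for Nfil3 and -0.20 for Wdr5, all with a limma adjusted p of 0.999. Bhlhe40 encodes a repressor that competes at E-boxes and Nfil3 a repressor that competes with DBP at D-boxes. Usp2 was lower in set 2 within both genotypes, by -0.45 in cKO and -0.53 in WT.

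Genes described as output of the clock in other tissues formed a list of 22, with Usp2 also on the list above, of which 16 were measured and 13 lay above the dim limit. None passed limma's test in either comparison, 4 of the 13 had an unadjusted p under 0.05 between genotypes, beside 14.2% of all genes, and 0 between sets, beside 2.86%, and the median genotype difference was 0.17. Ppp1r3c, a glycogen-targeting subunit of protein phosphatase, had the largest difference, 1.39 (SE 0.57, limma adjusted p = 0.356). It read 5.91 and 7.77 on the cKO arrays of sets 2 and 1 and 5.62 and 5.28 on the WT arrays, so its mean rested on the cKO array of set 1. Cdkn1a, the cell cycle inhibitor p21, differed by 0.99 (SE 0.29, limma adjusted p = 0.262), and Klf9, a Krüppel-like factor that is also a glucocorticoid target, by 0.83 (SE 0.21, limma adjusted p = 0.231). Through their brightest probe sets, both were at least 1.5-fold higher in cKO within both sets, 2 of 13 beside 3.04% of all genes. The second probe set of Cdkn1a, also bright, fell short in set 1 at 1.33-fold. Some further bright probe sets of Klf9 fell short in set 1, at 1.29-fold and 1.07-fold, and its other bright ones passed. Klf10 differed by 0.44 in each set and the transferrin receptor gene Tfrc by -0.63.

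Per1 and Klf9 are also induced by glucocorticoids, and a list of 17 such genes, which holds both, had 15 above the dim limit. Tsc22d3, a glucocorticoid-induced leucine zipper gene, was the only one to pass limma's test, rising in cKO by 1.80 (SE 0.17, adjusted p = 0.0479), a call lost at the percentile 60 filter, where limma called 0 of 5733 genes. The median difference of the list was 0.45, and 12 of the 15 were higher in cKO within both sets, beside 35.8% of all genes. Within both sets 1 of the 15 was lower, beside 27.9% of all genes. Without Per1 and Klf9 the median was again 0.45, and 10 of the 13 were higher within both sets. Txnip differed by 1.38, Zbtb16 by 0.88 and Dusp1 by 0.87, and none of these passed.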

How the data were processed

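Total RNA of sorted hair follicle stem cells (2 µg) was labelled for 4 Affymetrix arrays according to the labels. Intensity values as deposited by the authors are linear, from 5.29 to 25561 with array medians of 82.0 to 83.3, and RMA is named in the submitters' processing notes without settings. RMA supplies no detection calls, and dim probe sets were therefore defined by level. Differences of dim probe sets are compressed. No scanner files, slide or scan date were used here.

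log2 was computed from the deposited values. Of 22690 probe sets, 20380 had 1 gene symbol and named genes here, and array controls served only the check of RNA ends. The probe set of highest mean stood for its gene. Genes under percentile 40 of all probe sets, Xist and Y-linked genes were left out, and limma 3.58.1 (R 4.3.3) was run on the remaining 8031 genes over all 4 arrays, with lmFit, eBayes and Benjamini-Hochberg adjustment and no covariate. The fit was tested on simulated data. Named genes were all members, Tbx1, markers beside a result, up to 6 genes per list and comparison by size of the difference, up to 4 glucocorticoid genes and the 5 genes nearest to the mean profile. The members and lists were chosen with earlier results of these data known. The set number was read as pairing the arrays, since titles and descriptions group them by it; across 8031 genes the deviations of same-numbered arrays from their genotype means correlated with r = 0.192. Alternatives were 2 other filters, other uses of the probe sets, 2 scalings, a variance trend with robust fitting, the block, a threshold of 0.10, a 2-fold minimum and leaving out each array.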

Additional observations from a re-analysis of the deposited data

How the results depend on the processing

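Of 168 values of single clock genes under the alternatives, 160 kept their direction and stayed on the same side of the threshold, and 8 changed sign. The filters, the variance trend and the block leave a gene's difference as it was, so direction could not change under them. The same holds for the mean of probe sets in genes with a single probe set. Apart from Clock with the mean of its probe sets, every change of sign came from leaving out an array. Between genotypes, Clock read 0.039 with the mean of its probe sets, 0.0021 without the cKO array of set 1 and 0.33 without the WT array of set 2, with a lowest value of -0.51 when the WT array of set 1 was left out, and Cry2 read -0.011 without the WT array of set 2. Between sets, Cry1 read 0.054 without the cKO array of set 2 and at lowest -0.22, Nr1d1 read 0.12 without the cKO array of set 1 and 0.18 without the WT array of set 2 and at lowest -0.33, and Nr1d2 read -0.28 without the WT array of set 1 and at highest 0.45. The cause of these changes was not tested. The median genotype difference of the clock genes was 0.20 without the filter, 0.19 with the mean of each gene's probe sets and 0.19 with all 18 probe sets on their own and no filter, a setting chosen after seeing the data. With each array left out it ran from 0.22 to 0.48, and between sets from -0.28 to -0.07. The count of clock genes at least 1.5-fold higher in cKO within both sets, 2, was 1 at the percentile 60 filter, which leaves 4 clock genes, 1 with the mean of each gene's probe sets and 0 at a 2-fold minimum. Over all genes, limma's count between genotypes of 7 was 0 at the percentile 60 filter (5733 genes), 28 with a variance trend and robust fitting, 39 at a threshold of 0.10 and 83 with the set as a replicate block, and it ran from 2 to 16 with each array left out. Between sets it was 1 with genotype as a block and 0 otherwise. With the block no clock gene passed in either comparison, and Tbx1 did between genotypes. With 4 arrays and no detection calls, the levels of Per2 and Per3 cannot be told from background.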
